A study of Mus musculus with 12 samples.

Results

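The genes described here encode enzymes of de novo purine and pyrimidine synthesis. The 10 genes, Ppat, Paics, Gart, Pfas, Atic, Impdh1, Impdh2, Cad, Umps and Ctps, were taken by gene symbol from a table of 55487 genes. In GRCm38.p6 they lie at chr5:76913249-76951578 (Ppat), chr5:76951307-76967509 (Paics), chr16:91621186-91646952 (Gart), chr11:68985697-69008460 (Pfas), chr1:71557150-71579631 (Atic), chr6:29200434-29216364 (Impdh1), chr9:108560286-108565584 (Impdh2), chr5:31054780-31078479 (Cad), chr16:33954782-33967038 (Umps) and chr4:120539868-120570276 (Ctps). RNA was measured in primary cultures of mouse vascular smooth muscle cells (VSMC), the contractile cells of the vessel wall, used at passages 4 to 6 and taken from animals 4 to 6 weeks old. There were 4 groups of 3 libraries each. Cells from WT mice were left untreated or were given PDGF-BB, a platelet-derived growth factor that drives smooth muscle cells to divide and migrate, at 40 µg/L for 6 h. Cells from Tigar KO mice were untreated or given PDGF-BB in the same way. TIGAR is a fructose-bisphosphatase that lowers glycolytic flux and favours the pentose phosphate pathway. The labels leave out the type of deletion and do not say if a group's 3 libraries come from different mice or dishes, and p-values therefore cover only the spread among libraries, which may be technical.

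Purine nucleotides are built on phosphoribosyl pyrophosphate, the activated ribose that the pentose phosphate pathway feeds. Ppat commits it to the pathway, Gart, Pfas, Paics and Adsl add to the ring, Atic closes it to inosine monophosphate (IMP), and the IMP dehydrogenases Impdh1 and Impdh2 turn IMP toward the guanine nucleotides. Pyrimidines start with the multifunctional protein Cad, pass through Dhodh in the mitochondrion, reach uridine monophosphate at Umps and give CTP at the CTP synthases Ctps and Ctps2. Growth factors raise the demand for these nucleotides because ribosomal RNA and DNA are made from them, and Myc is a known activator of many of the genes.

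Tigar was read first, as a check of the labels. Untreated WT libraries held 6.99, 8.61 and 6.91 CPM (counts scaled to a library sum of 1000000), and untreated libraries labelled knockout held 10.0, 12.2 and 11.3. With PDGF-BB, Tigar stood at 11.5, 11.5 and 12.6 CPM in WT and at 14.6, 14.7 and 16.2 in the labelled knockout. Tigar RNA was thus higher, not lower, in the libraries labelled knockout, by 0.52 ± 0.11 log2 (SE, limma adjusted p = 0.00209) without and 0.33 ± 0.11 (adjusted p = 0.0292) with PDGF-BB. The latter Tigar call was lost without WT replicate 2 with PDGF-BB (adjusted p = 0.0725) or any 1 of the 3 treated labelled knockout libraries (0.0551 to 0.107). A count over the whole gene does not show whether an exon is missing, and the genotype is given below as labelled.

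Library depth ranged from 14953807 to 21698488 reads, and every one of the 10 genes had at least 120 reads in every library. WT replicate 1 with PDGF-BB stood apart. Its root-mean-square distance to its group mates was 0.416 log2 against 0.143 to 0.293 for the other libraries, and its deviation from them ran with exon length across genes (Spearman rho -0.58, a description over genes, against 0.43 and 0.53 in WT replicates 2 and 3 with PDGF-BB and -0.25 to 0.17 in the other 3 groups). Each library was set against the mean of its group mates, so the values of treated WT replicates 2 and 3 include replicate 1. Among the 10 genes, treated WT replicate 1 lay highest above replicates 2 and 3 for Impdh2 (0.45 log2). It lay farthest below them for Cad and Pfas (-0.33 and -0.31), the longest of the set by the deposited exon lengths (7137 and 6373 bases). Values without it are given beside the results of these genes whose call it changes.

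Endothelial and macrophage marker sums differed between the genotype labels. The summed level of 8 endothelial markers was 90.2 to 97.9 CPM in untreated WT libraries and 611 to 697 CPM in the untreated labelled knockout, and 75.2 to 78.0 against 572 to 591 CPM with PDGF-BB. Pecam1 averaged 37.8 CPM in untreated WT and 256 CPM in untreated labelled knockout libraries. The sum of 7 macrophage markers ran the other way, from 126 to 135 CPM in untreated WT against 30.03 to 35.6 in the labelled knockout, with Lyz2 at 80.9 and 18.5 CPM. With PDGF-BB the macrophage sum was 96.3 to 136 CPM in WT and 30.6 to 34.2 in the labelled knockout. Of the smooth muscle genes, Acta2 averaged 1582 CPM in untreated WT and 2460 CPM in untreated labelled knockout libraries, Myh11 71.5 and 79.0 CPM, and Des stayed under 1 CPM in every library. Tagln averaged 3.41 and 5.93 CPM and Myocd 1.94 and 2.79 in the same groups. In WT with PDGF-BB Cnn1 averaged 89.2 CPM against 66.2 untreated and Smtn 152 against 118. Myh11 averaged 35.9 against 71.5 and Lmod1 80.4 against 144. Of 7 smooth muscle markers tested in that response, 1 was called higher and 3 lower. The 8 smooth muscle markers together, mostly Acta2, gave 1808 to 2294 CPM in untreated WT and 2259 to 3466 in untreated labelled knockout. With PDGF-BB they gave 1470 to 1959 CPM in WT and 3146 to 3229 in labelled knockout. The sums of 6 fibroblast markers were 1724 to 1822, 4371 to 4769, 2306 to 2750 and 6302 to 6524 CPM in the same order, most of it Col1a1, a matrix gene that smooth muscle cells also express (1647 CPM on average in untreated WT and 4505 in untreated labelled knockout). Pdgfra went the other way, at 101 and 84.7 CPM, and the 5 fibroblast markers tested had a median genotype difference of -0.13 log2 untreated and 0.03 with PDGF-BB. In none of these lists was a marker at 0 in every library.

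Of the promoters found, 3 carry the E-box CACGTG, the site that Myc and its relatives bind, and 2 carry a match to the core motif of NRF1. The sequences are shown because the genes that rose and those that did not are both among them. RefSeq promoter windows (250 bases before to 50 after the start, GRCm38.p6) were found for 9 of the 10 genes, Pfas being the one without, and both strands were searched. These 9 genes had 11 windows, because Ctps and Impdh1 have 2 each. Each site is printed 5′ to 3′ on the strand of its gene in 30 bases with the motif in capitals.
Atic, chr1:71557137-71557166, plus strand: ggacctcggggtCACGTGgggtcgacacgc
Impdh2, chr9:108560314-108560343, plus strand: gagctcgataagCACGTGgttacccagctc
Paics, chr5:76951087-76951116, plus strand: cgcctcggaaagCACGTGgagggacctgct
Ppat, chr5:76951601-76951630, minus strand: gcttcccgccGCGCAGGCGCgctgacgcga
Ctps, chr4:120570322-120570351, minus strand: gagacgtcccGCGCATGCGCgccctagccc
The E-box lay 7 to 2 bases before the RefSeq start of Atic, 110 to 105 before that of Impdh2 and 203 to 198 before that of Paics. CACGTG was present in 7.15% of all 32851 windows and the NRF1 motif in 4.6%. The NRF1-type match lay 42 to 33 bases before the Ppat start and 65 to 56 before a Ctps start. The other Ctps window, chr4:120569410-120569709, held no match. In GENCODE M21 the Atic and Impdh2 E-boxes touch the first exon of their own gene, the Ctps match lies in no gene, and the Paics and Ppat matches lie in the first exon of the opposite gene, since the 2 genes run head to head. TGANGCAA, a form of the ATF4 response element, and TTTNGCGC, an E2F motif, had no match in these windows and were present in 3.69% and 1.38% of all windows. A match is a description of the letters only. The windows of the 9 genes held 14 to 28 CpG, against a median of 7 over all windows.

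PDGF-BB for 6 h raised most of the pathway. In WT cells 7 of the 10 genes were higher and 1, Paics, was lower at an adjusted p below 0.05 (limma), where 25.0% of the 14202 genes tested were called higher and 34.4% lower. By edgeR and DESeq2 8 were higher and 1 lower in WT, Ctps being the added one. Of the 14202 genes, edgeR called 4312 and DESeq2 4187 higher in WT. Higher genes made up 51.2% and 49.8% of their calls, against 42.1% with limma. In the labelled knockout limma called 8 of the 10 genes higher and 0 lower, where 17.6% of all genes were called higher and 24.8% lower. At an unadjusted p below 0.05 Paics was lower there. By edgeR and DESeq2 8 were higher and 0 lower in the labelled knockout. Over all genes each called 2951 higher, and they called 3079 and 3157 lower. The median change of the 10 genes was 0.80 log2 in WT and 0.64 in the labelled knockout, against -0.08 and -0.07 over all genes tested. Of all genes tested, 62.3% in WT and 63.2% in the labelled knockout had treated and untreated libraries that did not overlap, so that separation of the groups is common here. Changes are on log2(CPM + 1). In bulk RNA, a change in the number of cells of one kind and a change in RNA per cell cannot be told apart.

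**Figure D1:**
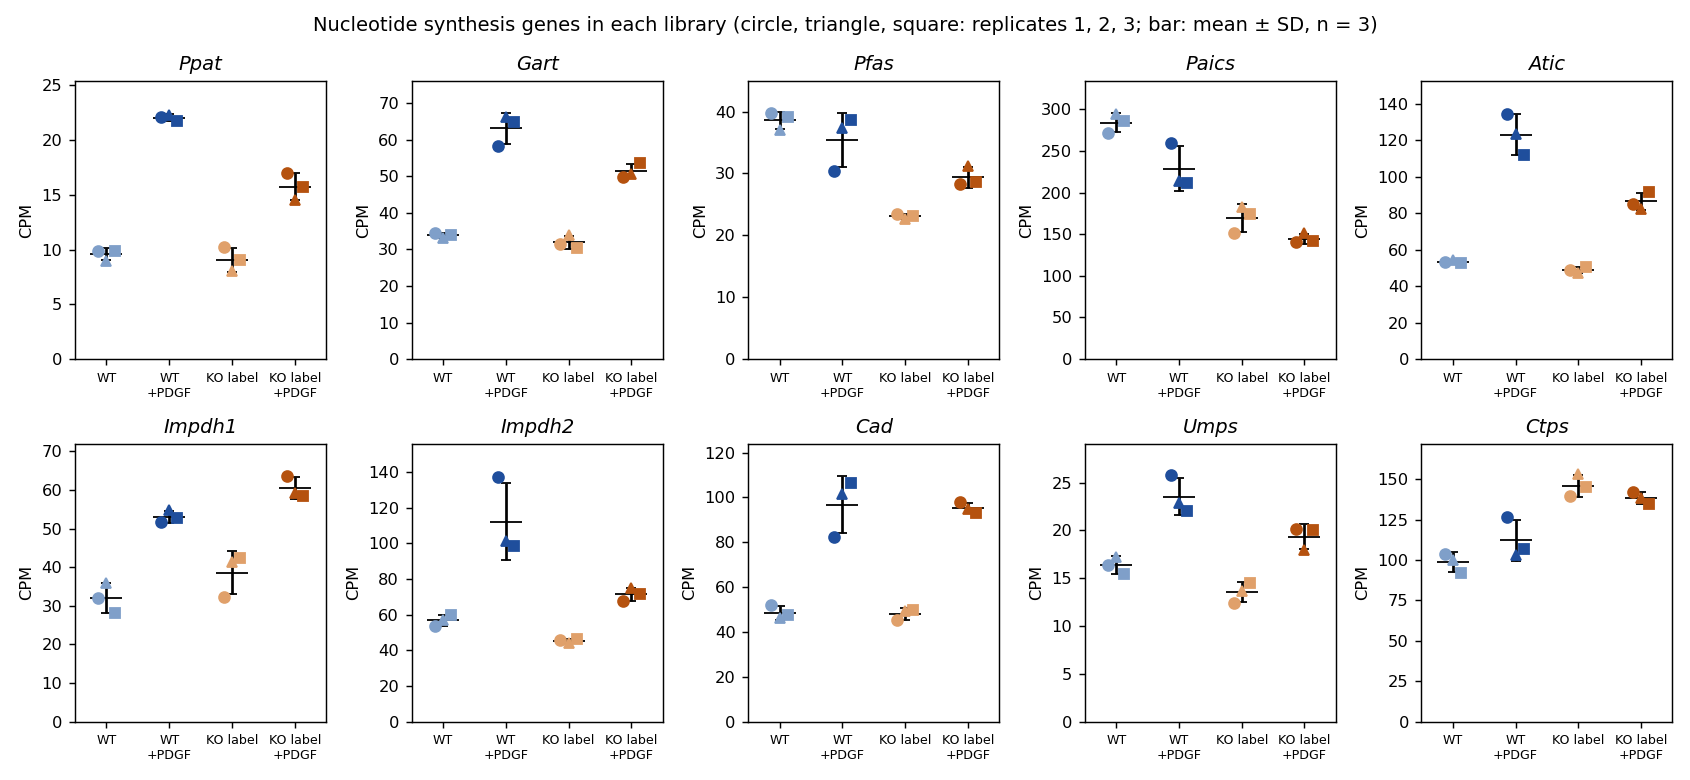
CPM (linear axis from 0) of the 10 genes in each of the 12 libraries, 1 panel per gene; circles, triangles and squares are replicates 1, 2 and 3, and bars give the mean and SD of 3 libraries. Ppat, Gart, Atic, Impdh1, Impdh2, Cad and Umps are higher in every PDGF-BB library than in every untreated library of the same genotype label, while Paics lies lower in WT and the Ctps treatments overlap.

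Ppat, the committed step, rose 2.30-fold in WT and 1.73-fold in the labelled knockout. Its level was 9.89, 8.96 and 9.89 CPM in untreated WT and 22.1, 22.3 and 21.7 CPM in WT with PDGF-BB. Labelled knockout libraries went from 10.2, 8.02 and 9.01 CPM to 17.0, 14.5 and 15.7 CPM. All treated libraries lay above all untreated ones, and the treated WT libraries lay above the treated labelled knockout libraries, while the untreated groups overlapped. The log2 change was 1.12 ± 0.10 in WT (SE, adjusted p = 7.35e-07) and 0.74 ± 0.10 in the labelled knockout (adjusted p = 6.76e-05).

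Gart, which carries several early ring-building activities on 1 protein, rose in both genotypes. It stood at 34.6, 33.2 and 34.0 CPM in untreated WT and at 58.4, 66.2 and 64.9 CPM with PDGF-BB. The labelled knockout held 31.5, 33.9 and 30.5 CPM untreated and 49.9, 50.8 and 53.7 CPM treated. The treated and untreated libraries did not overlap in either genotype. The change was 0.87 ± 0.07 log2 (adjusted p = 3.80e-07) in WT and 0.67 ± 0.07 (adjusted p = 9.32e-06) in the labelled knockout. An antisense gene, Gm15964, covers 19.7% of the annotated exonic bases of Gart, and it reached at most 0.567 CPM.

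Pfas, which makes the amidine that precedes ring closure, was called higher in the labelled knockout and not called in WT, and the difference of these responses is given with the interaction. WT libraries held 39.7, 37.1 and 39.1 CPM untreated and 30.4, 37.3 and 38.6 CPM with PDGF-BB, and the groups overlapped. Replicate 1 alone was low among the treated WT libraries. Labelled knockout Pfas went from 23.4, 22.6 and 23.2 CPM to 28.3, 31.2 and 28.5 CPM, with no overlap. The change was -0.13 ± 0.09 log2 in WT (adjusted p = 0.233) and 0.33 ± 0.09 in the labelled knockout (adjusted p = 0.00848). Without WT replicate 1 the WT change in Pfas was -0.02, and with the exon length trend removed it was 0.11.

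Paics, which carries the carboxylation and the aspartate-adding step, was the gene that moved down. It was at 272, 295 and 286 CPM in untreated WT and at 260, 214 and 211 CPM with PDGF-BB, so that every treated library was below every untreated one. The labelled knockout held 151, 183 and 175 CPM untreated and 140, 151 and 141 CPM treated, where the lowest untreated library met the highest treated one. Paics fell by 0.32 log2 in WT (SE 0.09, adjusted p = 0.00786), and the value in the labelled knockout was -0.23 ± 0.09 (adjusted p = 0.0555). The latter passed the threshold in Paics without WT replicate 1 with PDGF-BB (adjusted p = 0.00274), without WT replicate 3 with PDGF-BB (0.0440) and without untreated labelled knockout replicate 1 (-0.31, adjusted p = 0.0187).

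Ppat (chr5:76913249-76951578, minus strand) and Paics (chr5:76951307-76967509, plus strand) are neighbours transcribed away from each other from overlapping 5′ ends. Their annotations share 272 bases, which is 6.15% of the exonic bases of Ppat and 8.67% of those of Paics, and the RefSeq starts lie 276 bases apart. The 2 RNAs changed in opposite directions in WT cells. Per kilobase of exon, Paics exceeded Ppat 49.8 ± 4.72-fold (SD, n = 3) in untreated WT and 17.4 ± 2.02-fold with PDGF-BB. The same ratio was 31.8 ± 6.70 in the untreated labelled knockout and 15.4 ± 1.87 with PDGF-BB. In each genotype all 3 treated ratios were below all 3 untreated ones. The strand setting of the counting is not given in the sources used here, so reads in the shared bases cannot be assigned with certainty.

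Atic, the bifunctional enzyme that completes IMP, rose 2.30-fold in WT and 1.76-fold in the labelled knockout. WT libraries went from 53.5, 54.2 and 52.8 CPM to 134, 123 and 112 CPM. The labelled knockout went from 48.9, 47.5 and 50.7 CPM to 85.3, 82.4 and 91.7 CPM. The treated groups were apart from the untreated ones and from each other, and no treated library of the labelled knockout reached the lowest treated WT library. The change was 1.18 ± 0.07 log2 in WT (adjusted p = 2.93e-08), the largest of the 10 genes in that comparison, and 0.81 ± 0.07 in the labelled knockout (adjusted p = 2.23e-06).

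Impdh1 and Impdh2, which open the guanine branch, both rose. Impdh1 stood at 31.9, 35.9 and 28.1 CPM in untreated WT and 51.6, 54.7 and 52.8 CPM with PDGF-BB, and at 32.2, 41.3 and 42.3 CPM against 63.6, 59.3 and 58.3 CPM in the labelled knockout. The treated and untreated libraries were apart in both genotypes. The change of Impdh1 was 0.72 ± 0.11 log2 (adjusted p = 7.12e-05) in WT and 0.64 ± 0.11 (adjusted p = 0.000332) in the labelled knockout. Impdh2 held 53.7, 56.9 and 59.6 CPM in untreated WT and 137, 101 and 98.3 CPM with PDGF-BB. In the labelled knockout Impdh2 went from 45.8, 43.9 and 46.3 CPM to 67.7, 75.1 and 71.6 CPM. Treated Impdh2 libraries were again all higher than untreated ones, and WT replicate 1 was the high point of its group. The change of Impdh2 was 0.96 ± 0.11 log2 (adjusted p = 5.40e-06) in WT, or 0.80 without WT replicate 1, and 0.64 ± 0.11 (adjusted p = 0.000297) in the labelled knockout.

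A processed pseudogene, Impdh2-ps on chromosome 8, was singled out after its values were seen. It averaged 19.1, 37.1, 14.7 and 23.9 CPM in untreated WT, treated WT, untreated labelled knockout and treated labelled knockout libraries. The ratio of Impdh2 to Impdh2-ps stayed between 2.86 and 3.25 in all 12 libraries. How reads were shared between the gene and its pseudogene is not given in the sources used here, and their sequences were not compared. The level of Impdh2 is therefore uncertain by that share. With both summed, the changes of Impdh2 were 0.95 and 0.66 log2 for PDGF-BB in WT and labelled knockout, -0.33 (adjusted p = 0.0183) and -0.63 for genotype without and with PDGF-BB, and the calls were those of Impdh2 alone.

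Cad, which catalyses the first steps of pyrimidine synthesis, rose 1.99-fold in WT and 1.98-fold in the labelled knockout. It was at 52.1, 46.1 and 47.7 CPM in untreated WT and 82.5, 102 and 106 CPM with PDGF-BB. The labelled knockout held 45.1, 49.4 and 49.99 CPM untreated and 97.9, 95.0 and 93.3 CPM treated. Treated and untreated libraries were apart, and the genotypes overlapped within each treatment. The change was 0.97 ± 0.09 log2 in both (adjusted p = 1.11e-06 in WT and 2.69e-06 in the labelled knockout), and the difference between the 2 responses had a 95% interval from -0.28 to 0.27 log2.

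Umps, which makes uridine monophosphate, rose by less. WT libraries held 16.4, 17.3 and 15.4 CPM untreated and 25.8, 22.9 and 22.0 CPM with PDGF-BB. Labelled knockout Umps went from 12.4, 13.7 and 14.5 CPM to 20.2, 17.9 and 19.99 CPM. The treated libraries were all higher than the untreated libraries of their genotype. The change was 0.50 ± 0.09 log2 (adjusted p = 0.000471) in WT and 0.49 ± 0.09 (adjusted p = 0.000968) in the labelled knockout.

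Ctps, the CTP synthase, was not called by limma with PDGF-BB in either genotype. It was at 104, 100.2 and 92.2 CPM in untreated WT and 127, 103 and 107 CPM with PDGF-BB. The labelled knockout held 140, 153 and 145 CPM untreated and 142, 139 and 135 CPM treated. The treatments overlapped, whereas every labelled knockout library was higher than every WT library. The Ctps change was 0.18 ± 0.08 log2 (adjusted p = 0.0708) in WT and -0.08 ± 0.08 (adjusted p = 0.471) in the labelled knockout. In Ctps the WT change passed the threshold with TMM scaling (0.26, adjusted p = 0.0125), edgeR (0.26, adjusted p = 0.0135), DESeq2 (0.24, adjusted p = 0.0102), the exon length trend removed (0.23, adjusted p = 0.00657) and without WT replicate 2 with PDGF-BB (0.23, adjusted p = 0.0340).

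**Figure D2:**
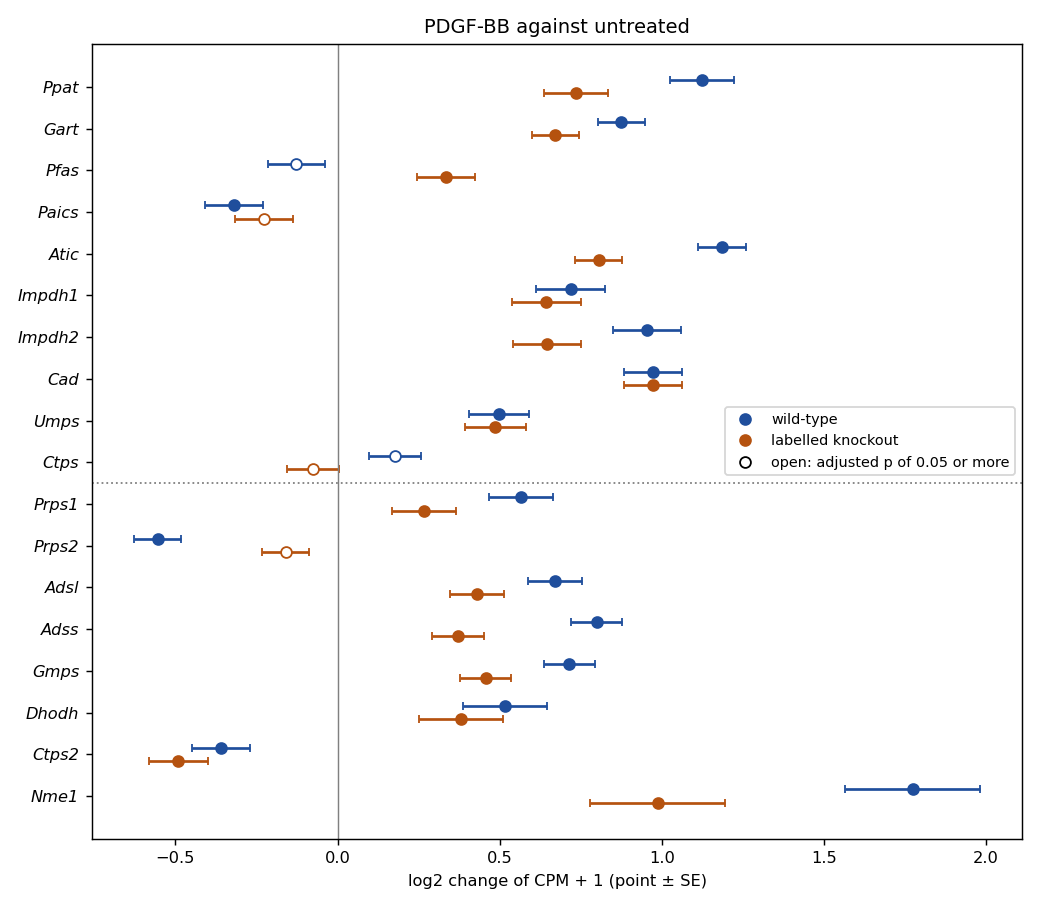
Change with PDGF-BB on log2(CPM + 1), as the point and its SE from the limma fit, for the 10 genes above the dotted line and 8 other genes of the pathways below it; filled points have an adjusted p below 0.05. The 7 genes from Ppat to Umps that rose in both genotypes reach 1.18 (Atic, WT), and Paics is at -0.32 in WT.

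The rest of the pathway followed in part. Over all genes tested, 25.0% were called higher and 34.4% lower in WT, and 17.6% and 24.8% in the labelled knockout. Of 8 other de novo purine genes, 4 were called higher and 1 lower in WT, and 5 higher and 1 lower in the labelled knockout. Adsl, the lyase used at 2 points of the purine route, rose by 0.67 log2 in WT and 0.43 in the labelled knockout. Adss, at the entry to the adenine branch, rose by 0.80 and 0.37, and Gmps, which makes GMP, by 0.71 and 0.46. The ribose-activating synthetases split. Prps1 rose by 0.57 and 0.27, the latter lost when any of 8 libraries was left out (adjusted p 0.0571 to 0.138), while Prps2 fell by 0.55 in WT (adjusted p = 2.53e-05) and was at -0.16 in the labelled knockout (adjusted p = 0.0938, or 0.0184 without WT replicate 1 with PDGF-BB). Of 5 other pyrimidine genes, 4 were higher and 1 lower in WT, and 2 higher and 1 lower in the labelled knockout. Dhodh rose by 0.52 and 0.38, the latter lost without untreated labelled knockout replicate 2 or 3 or treated replicate 1 or 3 (adjusted p 0.0663 to 0.13), and the nucleoside diphosphate kinase Nme1 by 1.77 and 0.99. Ctps2, the second CTP synthase, fell by 0.36 and 0.49.

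The lists of precursor supply moved in both directions. The shares over all genes were 25.0% higher and 34.4% lower in WT, and 17.6% and 24.8% in the labelled knockout. Of 15 folate and serine genes 10 were higher and 3 lower in WT, with a median of 0.99 log2, and 5 were higher and 2 lower in the labelled knockout, with a median of 0.15. Mthfd2, the mitochondrial methylenetetrahydrofolate dehydrogenase, rose by 2.56 log2 in WT and 0.60 in the labelled knockout. Mthfd1l rose by 2.36 and 1.42, Psat1, a serine synthesis enzyme, by 1.89 and 1.21, and Shmt2 by 1.53 and 0.52. Of 8 glutamine and aspartate genes tested, 5 were higher and 3 lower in WT, and 3 higher and 2 lower in the labelled knockout. The amino acid transporter Slc7a5 rose by 1.48 and 0.48 and the transaminase Got1 by 1.56 and 0.71. Slc38a2 fell by 0.69 and 1.01, and glutamine synthetase, Glul, by 1.08 and 0.79.

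Salvage, deoxynucleotide and breakdown genes went both ways, as did all genes tested. Of those, 25.0% were called higher and 34.4% lower in WT, and 17.6% and 24.8% in the labelled knockout. No list was tested against these shares. Of 14 salvage genes, 5 were higher and 3 lower in WT and 3 higher and 1 lower in the labelled knockout. Hprt, which recovers hypoxanthine and guanine, rose by 0.84 and 0.39, Aprt, for adenine, by 0.80 and 0.49, and the uridine-cytidine kinase Uck2 by 0.76 and 0.42. The labelled knockout calls of Hprt and Aprt were each lost when any of 5 of its libraries was left out (adjusted p 0.0566 to 0.0947 and 0.0586 to 0.11). Of 9 deoxynucleotide genes, 3 were higher and 3 lower in WT, and 2 higher and 2 lower in the labelled knockout. Dctd rose by 1.19 and 0.99, whereas Rrm2b fell by 0.35 and 0.28. The call of Rrm2b in the labelled knockout was lost without any of 4 libraries (adjusted p 0.0573 to 0.0853). Of 14 breakdown genes tested, 5 were higher and 4 lower in WT, and 2 higher and 2 lower in the labelled knockout. Samhd1, which degrades deoxynucleotides, fell by 1.498 and 1.03, Dpyd, the first enzyme of pyrimidine breakdown, fell by 0.45 and 0.57, and Ampd2 rose by 0.46 and 0.55. Of 7 regulators, 2 rose in each genotype. Myc rose by 1.36 and 1.03 log2, and Atf4 by 1.20 in WT, with 0.31 (adjusted p = 0.0855) in the labelled knockout. The latter Atf4 change passed without WT replicate 1 or 3 with PDGF-BB (adjusted p = 0.000159 and 0.0318), with TMM scaling (0.0408), and with edgeR (0.0459) and DESeq2 (0.0361). Treated WT replicates 1, 2 and 3 held 398, 273 and 239 CPM of Atf4. The summed level of 10 S-phase markers was 121 to 136 CPM in untreated and 135 to 160 CPM in treated WT, and 109 to 113 and 127 to 134 CPM in the labelled knockout. The sum of 8 G2/M markers was 145 to 223 and 86.4 to 93.9 CPM in WT, and 46.5 to 88.2 and 65.5 to 67.2 CPM in the labelled knockout. The part of these markers in the rise of the nucleotide genes was not tested.

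Between the genotype labels, 3 of the 7 purine enzymes were lower in the labelled knockout without PDGF-BB and 6 of 7 with it. In untreated cells 1 of the 10 genes was higher and 4 were lower (limma, adjusted p below 0.05), where 9.15% of all genes were called higher and 24.8% lower. With PDGF-BB 1 was higher and 7 were lower, where 10.6% of all genes were called higher and 26.6% lower. The median difference of the 10 genes was -0.10 log2 untreated and -0.28 with PDGF-BB, against -0.13 and -0.14 over all genes. Libraries of the genotype labels did not overlap for 54.7% of all genes untreated and 49.5% with PDGF-BB. These counts rest on the scaling. TMM scaling raised the median of all genes by 0.13 and 0.10 log2, moved the share of higher genes among all calls from 27.0% to 48.7% untreated and from 28.5% to 47.2% with PDGF-BB, and left 2 of the 10 genes higher and 2 lower untreated and 1 higher and 4 lower with PDGF-BB. Between the same groups all 7 endothelial markers tested were called higher in both conditions, and 6 of 6 macrophage markers untreated and 5 of 6 with PDGF-BB were called lower. Of the G2/M markers 8 of 8 were lower untreated (median -1.16 log2) and 1 of 8 with PDGF-BB, and of 7 smooth muscle markers 4 and 6 were higher. The part of these markers in the genotype differences was not tested.

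**Figure D3:**
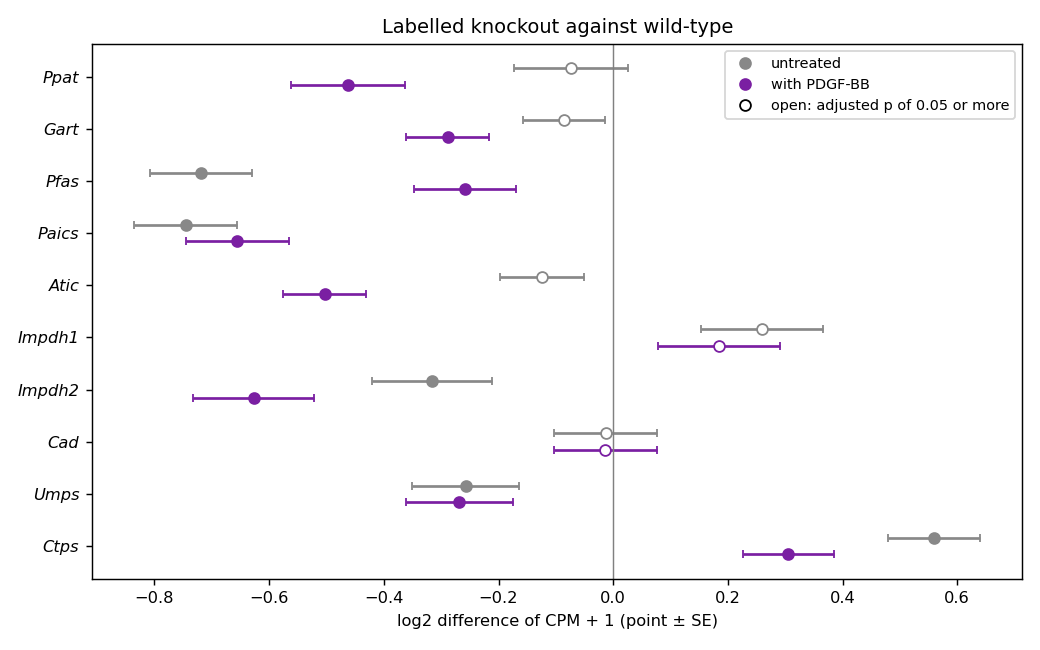
Difference between labelled knockout and wild-type on log2(CPM + 1), as the point and its SE from the limma fit, for the 10 genes in untreated cells and with PDGF-BB; filled points have an adjusted p below 0.05. Paics and Pfas are lowest without PDGF-BB (-0.75 and -0.72), and Ctps lies highest in both conditions (0.56 and 0.31).

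Paics and Pfas differed in both conditions. In untreated cells each was at 0.597 of its WT level, a log2 difference of -0.75 ± 0.09 for Paics (adjusted p = 3.02e-05) and -0.72 ± 0.09 for Pfas (adjusted p = 3.95e-05). With PDGF-BB Paics was at 0.631 of WT (-0.66 ± 0.09, adjusted p = 9.21e-05) and Pfas at 0.828 (-0.26 ± 0.09, adjusted p = 0.0365). All WT libraries were above all labelled knockout libraries of the same treatment for Paics, and for Pfas this held without PDGF-BB, while with it WT replicate 1 lay inside the labelled knockout range. With TMM scaling the Paics differences were -0.61 and -0.55 and the Pfas differences -0.59 and -0.15, the last with an adjusted p of 0.236. The treated Pfas call was also lost when any of 6 libraries was left out (adjusted p 0.0504 to 0.114), namely WT replicates 2 and 3 with PDGF-BB, untreated WT replicates 1 and 3, and treated labelled knockout replicates 1 and 3.

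Atic, Ppat and Gart were lower in the labelled knockout with PDGF-BB. Atic was at 0.702 of WT (-0.50 ± 0.07, adjusted p = 0.000155), Ppat at 0.714 (-0.46 ± 0.10, adjusted p = 0.00295) and Gart at 0.815 (-0.29 ± 0.07, adjusted p = 0.00712). Untreated, their differences were -0.12, -0.07 and -0.09, none past the threshold, and TMM scaling turned all of these untreated signs (0.01, 0.05 and 0.05). The Gart difference with PDGF-BB was -0.18 under TMM scaling (adjusted p = 0.0885), and those of Atic (-0.40) and Ppat (-0.36) stayed past the threshold.

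Impdh2 was lower in the labelled knockout, at 0.799 of WT untreated (-0.32 ± 0.11, adjusted p = 0.0329) and at 0.637 with PDGF-BB (-0.63 ± 0.11, adjusted p = 0.000501). The untreated Impdh2 call was lost when untreated WT replicate 2 or 3 or any untreated labelled knockout library was left out (adjusted p 0.0635 to 0.114), and under TMM scaling (-0.18, adjusted p = 0.199). Impdh1 was at 1.21 and 1.14 times WT (0.26, adjusted p = 0.0760, and 0.18, adjusted p = 0.186). The untreated Impdh1 difference passed without untreated WT replicate 2 (0.34, adjusted p = 0.0399), without WT replicate 1 with PDGF-BB (0.0249) or without untreated labelled knockout replicate 1 (0.38, adjusted p = 0.00877). Per kilobase, the ratio of Impdh2 to Impdh1 was 2.51 ± 0.40 in untreated WT and 1.67 ± 0.28 in the untreated labelled knockout (SD, n = 3). With PDGF-BB the ratio was 2.97 ± 0.64 in WT, where replicate 1 gave 3.71, and 1.66 ± 0.15 in the labelled knockout. All WT ratios were above all labelled knockout ratios.

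Of the pyrimidine genes, Ctps was the one higher in the labelled knockout, by 1.48 times untreated (0.56 ± 0.08, adjusted p = 0.000131) and 1.23 times with PDGF-BB (0.31 ± 0.08, adjusted p = 0.00964). Its relative Ctps2 was lower there, by 0.33 log2 untreated (adjusted p = 0.0133) and by 0.46 with PDGF-BB (adjusted p = 0.00168). Per kilobase, Ctps exceeded Ctps2 2.01 ± 0.20-fold in untreated WT, 2.93 ± 0.09-fold in WT with PDGF-BB, 3.74 ± 0.26-fold in the untreated labelled knockout and 5.02 ± 0.16-fold with PDGF-BB. The 4 groups of this ratio did not overlap. Umps was lower in the labelled knockout by 0.26 log2 untreated (adjusted p = 0.0474) and by 0.27 with PDGF-BB (adjusted p = 0.0371), close to the threshold in both, and under TMM scaling neither passed (-0.13 and -0.17). The Umps calls were lost when any of 10 libraries (adjusted p 0.0506 to 0.152) and any of 6 (0.0515 to 0.143) was left out. Cad was at 0.990 and 0.985 of WT, with intervals from -0.21 to 0.18 log2 both without and with PDGF-BB, and its small difference was positive under TMM scaling.

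**Figure D4:**
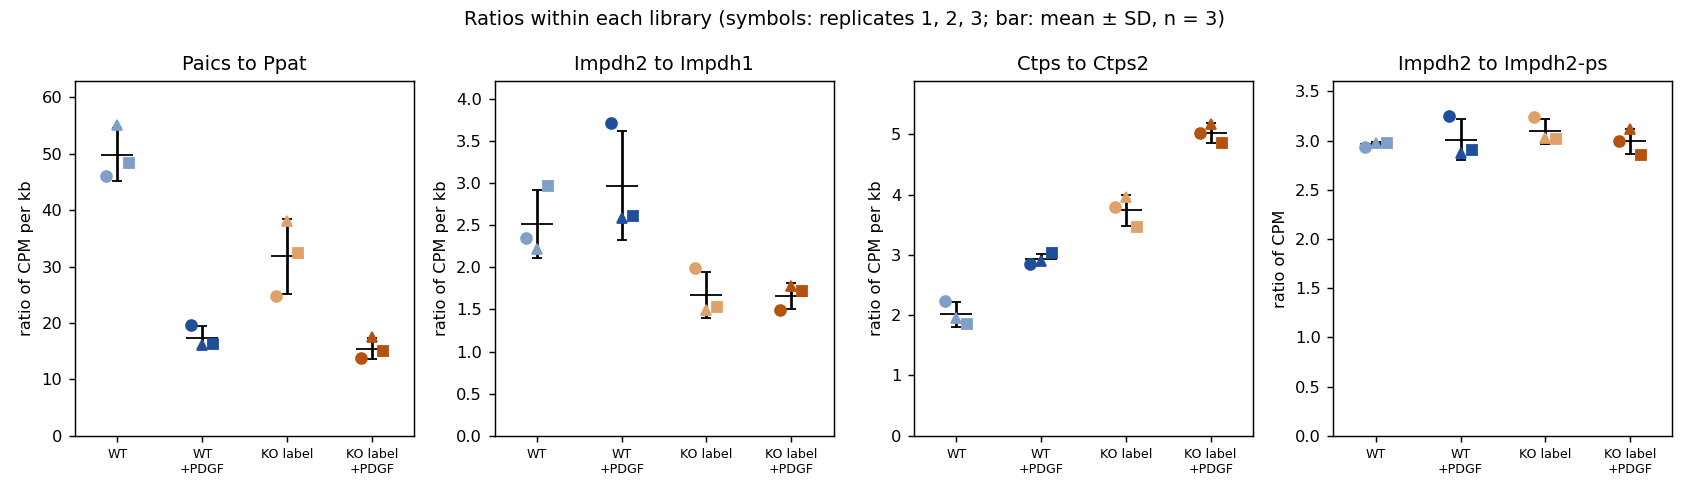
Ratios within each of the 12 libraries, linear axis from 0; the first 3 panels use CPM per kilobase of exon and the last CPM, symbols are replicates 1, 2 and 3, and bars give the mean and SD of 3 libraries. Paics to Ppat falls from 49.8 to 17.4 in WT with PDGF-BB, Ctps to Ctps2 runs from 2.01 in untreated WT to 5.02 in treated labelled knockout, and Impdh2 to Impdh2-ps stays near 3.

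Whether the response to PDGF-BB differed between the genotype labels was tested as an interaction, the response in the labelled knockout minus that in WT. At an adjusted p below 0.05 limma called 0 of the 10 genes, where 2.25% of all genes were called higher and 1.68% lower. At an unadjusted p below 0.05 there were 4, of which Pfas was higher and Ppat, Atic and Ctps were lower. The share of all genes at that unadjusted threshold is not given here, and the shares above are for adjusted calls only. Of the 10 genes edgeR called 1 lower and DESeq2 1 higher and 1 lower. Of all 14202 genes edgeR called 228 higher and 268 lower, and DESeq2 412 higher and 498 lower. The median of the 10 genes was -0.14 log2 against 0.01 over all genes. TMM scaling changed the share of higher genes among all interaction calls from 57.3% to 46.5%. Atic had -0.38 ± 0.10 (adjusted p = 0.0590) and Pfas 0.46 ± 0.13 (adjusted p = 0.0597). Without WT replicate 1 with PDGF-BB both passed, Atic at -0.32 (adjusted p = 0.0156) and Pfas at 0.36 (adjusted p = 0.0169). Without WT replicate 3 with PDGF-BB they passed as well, Atic at -0.45 (adjusted p = 0.0188) and Pfas at 0.52 (adjusted p = 0.0285). Ppat was at -0.39 ± 0.14 (adjusted p = 0.145), Impdh2 at -0.31 ± 0.15 (adjusted p = 0.277) and Ctps at -0.25 ± 0.11 (adjusted p = 0.241). Gart had an interval from -0.42 to 0.02 log2, Paics from -0.18 to 0.36, Impdh1 from -0.40 to 0.25 and Umps from -0.30 to 0.27.

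Levels were ordered per kilobase of exon, with the exon length that the file gives. That length matters: Atic has 2845 bases in the file and 7985 in GENCODE M21, and Impdh2 has 1858 and 3077, so the order and the ratios between genes hold for the file's lengths. By these, Paics was highest in each, at 114 ± 4.72, 92.1 ± 10.97, 68.3 ± 6.62 and 58.1 ± 2.45 CPM per kb (SD, n = 3) in untreated WT, treated WT, untreated labelled knockout and treated labelled knockout. Ppat, the committed step, was lowest in each, at 2.30 ± 0.13, 5.30 ± 0.08, 2.18 ± 0.26 and 3.79 ± 0.30 CPM per kb. In untreated WT the order was Paics, Ctps, Impdh2, Atic, Impdh1, Gart, Cad, Pfas, Umps and Ppat, and no neighbours overlapped. With PDGF-BB in WT, Impdh2 (60.3 CPM per kb) stood above Atic (43.3) and Ctps (41.5), and the last pair overlapped, as did Pfas and Ppat. In the labelled knockout Ctps stayed second in both conditions, at 54.0 and 51.1 CPM per kb, and Umps and Pfas overlapped in untreated cells.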

How the data were processed

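Poly(A) RNA libraries were made with a stranded kit, per the labels' protocols. The submitters' processing notes name HISAT2, HTSeq and mm10, without versions, and the strand setting of the counting is not given in the sources used here. The assembly was GRCm38.p6, per the file headers. The deposited values are CPM made by the authors, despite a table name that says FPKM: each of the 12 libraries summed to 1000000, and 100% of values were whole reads within 0.001 read after scaling. The value columns not assigned to a sample numbered 0.

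Genes with at least 1 CPM in at least 3 of 12 libraries were kept (14202), and log2(CPM + 1) was fitted with limma-trend (limma 3.58.1, R 4.3.3), 1 mean per group. The 2-sided p-values were adjusted by Benjamini-Hochberg across the genes kept, and 0.05 was the threshold. Alternatives were other pseudocounts, no filter, TMM scaling and quantile normalization, library weights, the exon length trend removed, the recovered reads tested with DESeq2 1.42.0 or edgeR 4.0.16, the compared groups alone, no variance trend, a replicate block, and each library left out. edgeR called 8414 genes in the WT response and limma 8431. Promoters came from RefSeq tables of GRCm38.p6 and overlaps from GENCODE M21. At the lowest depth 1 read was 0.0669 CPM. The 10 genes and the other lists were chosen with earlier results of these data known. Of the other lists, genes called in the PDGF-BB response of both genotypes or in the interaction were named, at most 4 per list and comparison; genes of these lists that are not named are in the counts only, and some are not reported here. Summing Impdh2 with its pseudogene was added after the data were seen.

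On simulated counts for the WT response, with 13900 genes, 64.5% of 1.5-fold, 94.3% of 2-fold and 100% of 4-fold changes were recovered, with 6 false among 180 calls. For the interaction, with 13901 genes, the shares were 31.4%, 85.2% and 94.2%, with 9 false among 148. Changes of the 3 sizes were set in 62, 70 and 68 genes for the WT response and in 70, 61 and 69 for the interaction. All else followed the untreated WT means, with the same spread setting for every gene and library. In the data limma called 8431 genes in the WT response and the spread differed between libraries, so these shares may not hold there. Python 3.11.15 and matplotlib 3.10.9 drew the figures.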

Additional observations from a re-analysis of the deposited data

Results flagged for a closer look

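The change with PDGF-BB differed between the genotype labels, by the interaction term of the limma fit (labelled knockout minus WT, adjusted p below 0.05), for 0 of the 10 synthesis genes and for 11 other genes of the nucleotide lists, of which 10 are given here. Over all genes tested, 2.25% were called higher and 1.68% lower in the interaction. The other lists held 8 purine, 5 pyrimidine, 14 salvage, 9 deoxynucleotide, 15 folate and serine, 8 glutamine and aspartate, 14 breakdown and 7 regulator genes tested. Of 15 folate and serine genes tested, 1 was called higher and 3 lower. The lower ones were Mthfd2 at -1.96 log2, Shmt2 at -1.01 and Mthfd1l at -0.94. The difference was -1.31 for asparagine synthetase, Asns, -0.999 for Slc7a5 and -0.85 for Got1 among the amino acid genes, and -0.89 for the transcription factor Atf4. It was -1.03 for uridine phosphorylase, Upp1, 0.40 for Prps2 and 0.47 for Samhd1. Upp1 was near the floor, at means of 0.276 and 1.76 CPM in untreated and treated WT and 0.885 and 0.960 in the labelled knockout. Its lowest library held 3 reads, and at such levels the 1 CPM added before the log2 weighs on the change. When single libraries were left out, the call was lost for Prps2 and Upp1 in 9 of 12 cases each, Atf4 in 7, Samhd1 in 6 and Got1 in 1, without treated labelled knockout replicate 2 (adjusted p = 0.0520). In untreated WT and labelled knockout, Mthfd2 averaged 10.7 and 28.6 CPM, Asns 25.6 and 49.7, Slc7a5 34.2 and 58.8 and Atf4 129 and 166. With PDGF-BB they averaged 67.4 and 43.0, 83.6 and 62.1, 97.3 and 81.5, and 303 and 205. Shmt2 averaged 30.6 and 33.5 CPM untreated and 90.7 and 48.2 treated, and Prps2 62.1 and 45.2, then 42.1 and 40.3. The interaction thus holds untreated as well as treated differences. The reasons for these differences were not tested.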

How the results depend on the processing

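For the 10 genes, 50 changes were each recomputed under the alternatives, 1295 values in all: 1146 kept direction and side of the threshold, 62 lost the call, 41 gained one and 46 changed sign. In every alternative the rises of Ppat, Gart, Atic, Impdh1, Impdh2, Cad and Umps with PDGF-BB in both genotypes were past the threshold. The causes of the changes below were not tested. The library weights fit stopped before its estimate of the weights reached the convergence tolerance, and its counts are given with that doubt.

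Changes of sign were in small differences. Under TMM scaling, edgeR, DESeq2 and exon length trend removal, the untreated genotype difference was 0.0084, 0.0091, 0.022 and 0.041 for Atic, 0.045, 0.047, 0.059 and 0.067 for Gart, 0.047, 0.058, 0.072 and 0.065 for Ppat, and 0.12, 0.12, 0.13 and 0.10 for Cad. Quantile normalization gave 0.030 for Gart, 0.10 for Ppat and 0.088 for Cad, and library weights 0.0075 for Cad. With PDGF-BB Cad was at 0.093 (TMM), 0.091 (quantile), 0.085 (edgeR) and 0.11 (DESeq2). The interactions of Cad and Umps were 0.0034 and 0.0046 under quantile normalization, and the WT response of Pfas was 0.11 with the length trend removed. Leaving out each library gave -0.11 to 0.070 for the Cad interaction, -0.050 to 0.037 and -0.12 to 0.057 for the Cad genotype differences without and with PDGF-BB, -0.20 to 0.011 for the Impdh1 interaction, -0.15 to 0.0026 for the untreated Ppat difference, -0.067 to 0.053 for the Umps interaction and -0.026 to 0.25 for the Upp1 response in the labelled knockout.

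Of the 10 genes, untreated genotype calls were 2 higher under TMM, quantile, library weights, edgeR, DESeq2 and length removal (1 in the reported fit), and 2 lower under no filter, TMM, quantile, edgeR, DESeq2 and length removal (4 in the reported fit), with 1 to 2 higher and 2 to 4 lower when libraries were left out. With PDGF-BB they were 2 higher under library weights, DESeq2 and length removal (1), and 4 lower under TMM, quantile, edgeR and DESeq2 (7). The lower calls with PDGF-BB were 5 under no filter, the compared groups alone, the replicate block and length removal, 8 under library weights, and 5 to 7 when libraries were left out. Interaction calls were 1 higher under library weights, DESeq2 and length removal, and 1 lower under TMM, edgeR, DESeq2 and length removal and 5 under library weights (0 and 0), with 0 to 1 in each direction when libraries were left out. In the labelled knockout response 1 was lower under quantile, library weights and the compared groups alone, and 0 to 1 when libraries were left out.

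Over all genes, only the settings that moved a count by the larger factors are listed. Untreated genotype calls were 2090, 2144 and 2571 higher under library weights, DESeq2 and length removal (1300 genes in the reported fit), and 2031, 2149, 5916, 1993, 1947 and 2252 lower under TMM, quantile, library weights, edgeR, DESeq2 and length removal (3523). Settings not listed also moved counts, as with 1931, 1862 and 1943 higher untreated under TMM, quantile and edgeR. With PDGF-BB 2796 were higher under library weights (1507), and 2154, 1950, 7469, 2258, 2246, 2070 and 2225 lower under TMM, quantile, library weights, the compared groups alone, edgeR, DESeq2 and length removal (3777). Interaction calls of all genes were 2579 higher under library weights (319) and 155, 2141, 498 and 664 lower under no filter, library weights, DESeq2 and length removal (238), with 156 to 811 higher and 118 to 743 lower when libraries were left out, both upper ends without WT replicate 1 with PDGF-BB.

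No pairing of libraries by replicate number was seen. Of 18 same-numbered pairs 3 had a correlation of deviations over 0.1 (range -0.23 to 0.18), and 3 of 12 libraries correlated best with their own number. This cannot exclude pairing, because deviations were taken within groups of 3 and WT replicate 1 with PDGF-BB stood apart. With the replicate block, untreated genotype calls among the 10 genes were 2 lower in place of 4, Impdh2 and Umps being lost, and with PDGF-BB Pfas and Umps were lost.

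The lowest count of the 10 genes was 120 reads, for Ppat, and the effect of depth was not tested. With 3 libraries a group, 31.4% of simulated 1.5-fold interactions were recovered, in a simulation with fewer changed genes and a more even spread than the data.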
